A study of Mus musculus with 3 samples.

Results

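The AP-1 family consists here of 10 genes for basic leucine zipper transcription factors: Fos, Fosb, Fosl1, Fosl2, Jun, Junb, Jund, Jdp2, Atf3 and Batf3. They were chosen by name, with earlier results of these data known. Each has 1 row in the deposited table of 24067 genes, and all 10 were found. Levels are in FPKM, fragment numbers divided by transcript length and by library size, a per-length scale on which genes can be compared with each other. RNA was sequenced from primary mouse bone pre-osteoclasts, mononuclear cells positive for tartrate-resistant acid phosphatase, to examine the response to fluid shear and the part of Ift88, a component of intraflagellar transport. All groups received MCSF and RANKL for 2 days and carried a short hairpin RNA (shRNA). The libraries came from cells kept static with control shRNA, cells with control shRNA under orbital shear stress for 24 hours, and cells with Ift88 shRNA under the same shear, 1 library for each group. Ift88 shRNA without shear was not analysed here, so the knockdown is described under shear only. The mouse strain, age and sex, the number of animals pooled and the delivery of the shRNA were not given in the sources used here.

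AP-1 is a dimer. Jun proteins pair with each other or with Fos proteins, whereas Fos proteins need a Jun partner, and the dimers bind the TPA response element (TRE) or, with partners of the ATF kind, the cyclic AMP response element (CRE). RANKL signalling in osteoclast precursors raises Fos, which cooperates with NFATc1, and mice without Fos lack osteoclasts. Many of these genes are immediate early genes, whose RNA appears quickly after a stimulus and is short-lived. Jdp2 and Atf3 are related to each other and can repress or activate depending on the partner.

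The start-site flanks of Fos, Jun and Atf3 are shown because Fos had the highest log2 ratio of FPKM + 1 between the sheared libraries among the 10 genes and Jun and Atf3 were lowest with Ift88 shRNA. Each line holds the 250 bases before the RefSeq start site, read 5′ to 3′ on the gene's strand (build GRCm38.p6), with capitals on any match to a searched motif. They lie at chr12:85473640-85473889 (plus strand, Fos), chr4:95052223-95052472 (minus strand, Jun) and chr1:191183334-191183583 (minus strand, Atf3).
Fos: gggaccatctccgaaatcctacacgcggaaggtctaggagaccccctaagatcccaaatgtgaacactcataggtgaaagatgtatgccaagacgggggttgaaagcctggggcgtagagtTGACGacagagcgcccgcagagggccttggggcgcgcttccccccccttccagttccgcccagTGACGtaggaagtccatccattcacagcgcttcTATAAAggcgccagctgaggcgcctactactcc
Jun: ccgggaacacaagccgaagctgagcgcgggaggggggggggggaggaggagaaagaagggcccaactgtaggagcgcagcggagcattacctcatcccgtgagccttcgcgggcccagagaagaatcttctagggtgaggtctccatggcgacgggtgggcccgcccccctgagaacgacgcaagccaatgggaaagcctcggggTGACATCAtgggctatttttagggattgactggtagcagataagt
Atf3: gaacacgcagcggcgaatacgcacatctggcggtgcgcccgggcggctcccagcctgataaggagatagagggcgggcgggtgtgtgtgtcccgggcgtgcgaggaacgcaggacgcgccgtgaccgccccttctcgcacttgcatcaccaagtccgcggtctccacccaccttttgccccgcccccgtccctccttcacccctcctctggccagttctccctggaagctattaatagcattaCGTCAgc
The capitals in Fos mark TGACG, the core of a CRE, at 66 to 62 and at 129 to 125 bases before the start, and TATAAA at 33 to 28. In Jun they mark TGACATCA, a variant of the TRE, at 45 to 38 bases before the start. In Atf3 they mark the same core on the opposite strand, CGTCA, at 7 to 3 bases before the start.

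Motifs were searched on both strands in the 11 windows that RefSeq start sites gave for 9 of the 10 genes, Jdp2 having 3 windows. TGACG was found in 5 of the 11 windows (Fos, Fosb, Junb, Atf3 and 1 of Jdp2) and in 17.8% of 32851 windows of the same length over all genes. TGACATCA was found in 1 member window and in 2.93% of all windows, and TATAAA in 1 and in 12.4%. The TRE, TGANTCA, was in 0 member windows and 6.75% of all, the full CRE, TGACGTCA, which contains TGACG, in 0 and 1.55%, and the CArG box in 0 and 1.47%. The 250 bases were rich in G and C, at 76.0% for Batf3, 65.2% for Atf3, 61.2% for Jun and 58.4% for Fos, against a median of 52.4% over all windows, with Jund lower at 47.6%. A match describes letters only, and no binding was measured here. Sites beyond the 250 bases, and variants other than the motifs named, were not searched, so 0 matches does not mean that a gene lacks such a site.

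In the targeted gene, Ift88 (gene ID 21821), the level was 2.98 FPKM with static culture, 2.71 with shear and control shRNA, and 1.197 with shear and Ift88 shRNA, which goes with the labels. Estimated depth was 35000000 to 35400000 fragments a library, from the spacing of low FPKM values. Because each group is 1 library, p-values are not printed and differences could not be checked in replicates. Bracketed ranges are 95% Clopper-Pearson intervals on estimated fragments that cover counting error only. A ratio of FPKM compares single libraries, and fewer cells of a type cannot be told apart from less RNA per cell. Genes with a mean of at least 1 FPKM over the libraries were compared, 10358 in all. A gene is counted as higher or lower when its ratio reached 1.2-fold in that direction on the scale of FPKM + 1. Acp5, which encodes tartrate-resistant acid phosphatase and names the labelled cell type, was at 97.7, 52.9 and 83.0 FPKM in the same order of libraries. Of 14 osteoclast markers, 10 passed the filter, among them Tcirg1 (395 to 406 FPKM) and Atp6v0d2 (182 to 211), while Oscar, Ocstamp and Calcr were below 1 FPKM in each library.

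The family was led by Atf3 and the 3 Jun genes in every library. Atf3 ranked 396 of 24067 genes in the static library, 447 in the sheared control and 492 with Ift88 shRNA. Jun held rank 1022, 1181 and 1269, and Junb and Jund lay between rank 1416 and rank 1843. Fos stood far lower, at rank 5944, 6097 and 4630. Of the 10 genes, 8 passed the filter of 1 FPKM. Batf3 lay just inside it, with a mean of 1.31 FPKM, and Fosl1 (0.112) and Fosb (0.0553) lay outside.

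**Figure D1:**
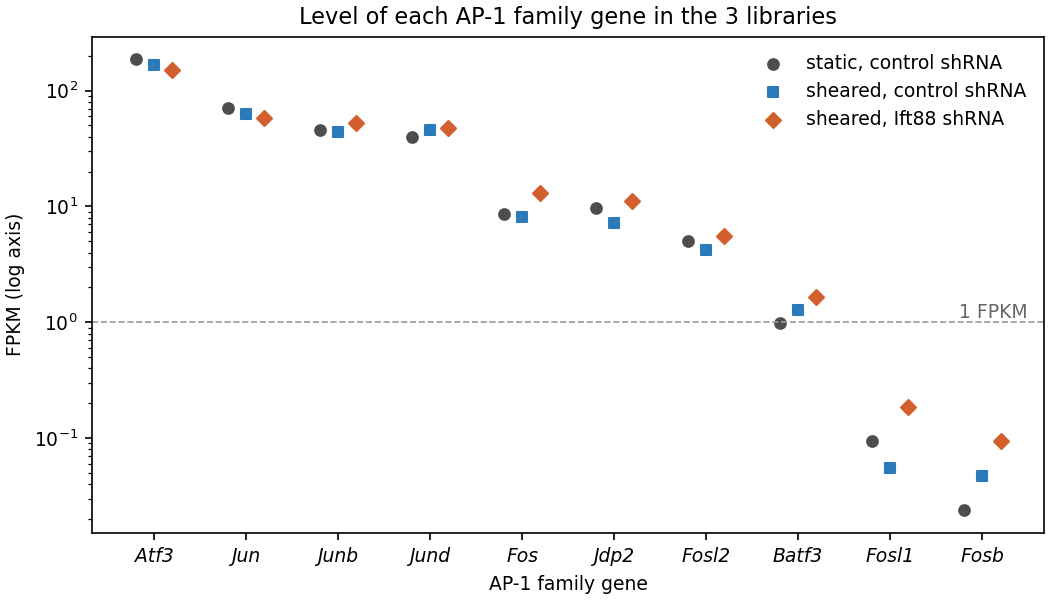
FPKM of each AP-1 family gene (log axis) in the static control, sheared control and sheared Ift88 shRNA libraries, 1 point per library, genes ordered by mean. Atf3 stands highest at 151 to 186 FPKM, the 3 Jun genes at 39.9 to 71.4, and Fosl1 and Fosb below 0.2 in every library.

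The summed FPKM of the 10 genes was 368 in the static library, 341 in the sheared control and 340.5 with Ift88 shRNA. The totals of both sheared libraries were nearly equal, and their parts differed. Atf3 made up 50.7%, 49.2% and 44.2% of that sum. The Jun genes together made up 42.7%, 44.7% and 46.5%, and the Fos genes 3.76%, 3.63% and 5.54%. Jun genes exceeded Fos genes 11.3-fold in summed FPKM in the static library, 12.3-fold in the sheared control and 8.39-fold with Ift88 shRNA. Without Atf3, the other 9 genes summed to 182, 173 and 190.0 FPKM.

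**Figure D2:**
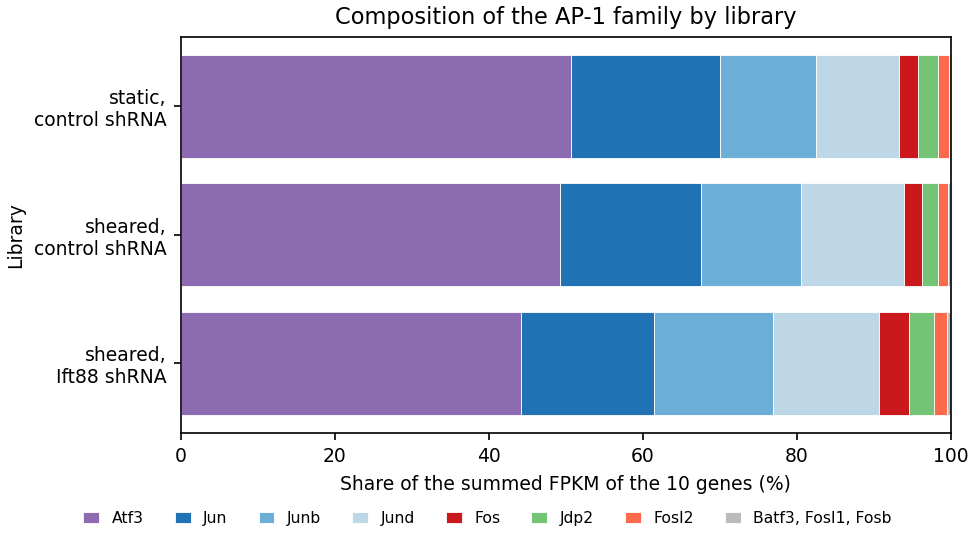
Share of the summed FPKM of the 10 AP-1 family genes (horizontal axis, %) held by each gene in each library; the 3 scarcest genes are drawn together. The Atf3 share is 50.7%, 49.2% and 44.2% from top to bottom, and the Fos share 2.36%, 2.37% and 3.84%.

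Among the Fos genes, Fos (gene ID 14281; chromosome 12, 85473890 to 85477274 in GRCm38) was at 8.66 FPKM in static cells, 8.09 in sheared control cells and 13.1 in sheared cells with Ift88 shRNA. The Ift88 shRNA library stood apart from both others, which lay close together. The ratio of Ift88 shRNA to sheared control was 1.62 (1.45 to 1.802), and the ratio of sheared to static was 0.933 (0.828 to 1.05), an interval that includes no difference. Fos was counted on an estimated 582, 549 and 885 fragments. Of all genes tested, 0.222% had a higher log2 ratio than Fos in the knockdown comparison and 76.6% in the shear comparison. Against the static library, the Ift88 shRNA library was 1.51-fold higher for Fos (1.36 to 1.68).

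Fosl2, which encodes Fra-2, a Fos protein with its own part in osteoclast size and survival (chromosome 5, 32136472 to 32157840), was at 5.04, 4.19 and 5.52 FPKM in the same order. The sheared control library was the low one, and the others lay within 1.09-fold of each other (1.01 to 1.19). The ratio of sheared to static was 0.830 (0.761 to 0.907) and that of Ift88 shRNA to sheared control 1.32 (1.21 to 1.44). Fosl2 shared with Fos the order of the 3 libraries but differed in where the gap lay: for Fos between static and Ift88 shRNA, for Fosl2 mainly between sheared control and the others.

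Fosl1, which encodes Fra-1 and can be induced through Fos, was at 0.0942, 0.0558 and 0.186 FPKM, or an estimated 5.5, 3.3 and 11 fragments. Its gene overlaps Ccdc85b (3.89, 4.497 and 4.03 FPKM), and since strand use is not stated its few fragments are uncertain. Fosb was at 0.0239, 0.0473 and 0.0949 FPKM, an estimated 3, 6 and 12 fragments. For both genes the highest value was in the Ift88 shRNA library. The ratio to the sheared control had intervals of 0.971 to 20.5 for Fosl1 and 0.697 to 6.51 for Fosb, which include no difference, so a difference was not detectable at this depth. Against the static library, with its 3 fragments, the Ift88 shRNA library had a Fosb ratio of 3.98 with an interval of 1.07 to 21.9, and for Fosl1 the interval was 0.616 to 5.99.

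The Jun genes differed from one another. Jun (gene ID 16476; chromosome 4, 95049036 to 95052222), the main partner of Fos, was at 71.4 FPKM in static, 62.4 in sheared control and 58.5 in sheared Ift88 shRNA cells. It was highest in static cells and lowest with Ift88 shRNA. The ratio of sheared to static was 0.875 (0.846 to 0.904), and that of Ift88 shRNA to sheared control 0.937 (0.906 to 0.971). Both are within 1.2-fold, and with Ift88 shRNA against static the ratio was 0.820 (0.793 to 0.848).

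Jund (gene ID 16478; chromosome 8, 70697739 to 70700616), a Jun protein often abundant in resting cells, was at 39.9, 45.7 and 47.1 FPKM. It was lowest in static cells, the reverse of Jun, and the sheared libraries lay close together. The ratio of sheared to static was 1.14 (1.08 to 1.21) and that of Ift88 shRNA to sheared control 1.03 (0.975 to 1.09). Junb (gene ID 16477; chromosome 8, 84976909 to 84978748), a Jun protein with weaker activation than Jun on many sites, was at 45.6, 44.2 and 52.7 FPKM. Here the control libraries were alike, at a ratio of 0.969 (0.917 to 1.02), and the Ift88 shRNA library was 1.19-fold above the sheared control (1.13 to 1.26), just short of the 1.2-fold line. The level of Jun over that of Junb was 1.57 in static, 1.41 in sheared control and 1.11 in Ift88 shRNA cells. Junb was above Jund in the static and Ift88 shRNA libraries. In the sheared control Junb was slightly below Jund, at 44.2 against 45.7 FPKM, a small gap between single values.

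Jdp2 and Atf3, the closely related pair, went different ways. Jdp2 (gene ID 81703; chromosome 12, 85598656 to 85639878), a Jun-dimerising factor needed for normal osteoclast formation, was at 9.79 FPKM in static, 7.14 in sheared control and 11.1 in sheared Ift88 shRNA cells. The sheared control library was the low one on either side. The ratio of sheared to static was 0.729 (0.635 to 0.837), and 0.676% of genes tested had a lower log2 ratio. The ratio of Ift88 shRNA to sheared control was 1.55 (1.36 to 1.78), and 0.299% of genes tested had a higher one. With 3 transcripts in the deposited row, the fragment numbers of Jdp2 rest on the mean transcript length and are less certain. Fos and Jdp2 had similar levels, Jdp2 being the higher of the pair in static cells and Fos in both sheared libraries.

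Atf3 (gene ID 11910; chromosome 1, 191170296 to 191183333), a stress-induced factor of the ATF group, was at 186 FPKM in static, 168 in sheared control and 151 in Ift88 shRNA cells. Like Jun, it was highest in static cells and lowest with Ift88 shRNA. The ratios were 0.899 (0.876 to 0.923) for sheared to static, 0.898 (0.874 to 0.923) for Ift88 shRNA to sheared control, and 0.808 (0.786 to 0.830) for Ift88 shRNA to static. The estimated 11700, 10642 and 9532 fragments make the counting intervals of Atf3 the narrowest of the family, but they say nothing of differences between cultures. The level of Atf3 over that of Jun was nearly constant, at 2.61, 2.68 and 2.57, whereas Atf3 over Jdp2 was 19.0, 23.5 and 13.6.

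Batf3 (gene ID 381319; chromosome 1, 191098414 to 191108943), which pairs with Jun proteins and is known for its need in a class of dendritic cells, was at 0.990, 1.28 and 1.66 FPKM. The highest value was with Ift88 shRNA and the lowest in static cells. With an estimated 21, 28 and 36 fragments the intervals were wide, 0.722 to 2.44 for sheared to static, 0.765 to 2.19 for Ift88 shRNA to sheared control and 0.966 to 3.06 for Ift88 shRNA to static. They include no difference, so a difference was not detectable at this depth.

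**Figure D3:**
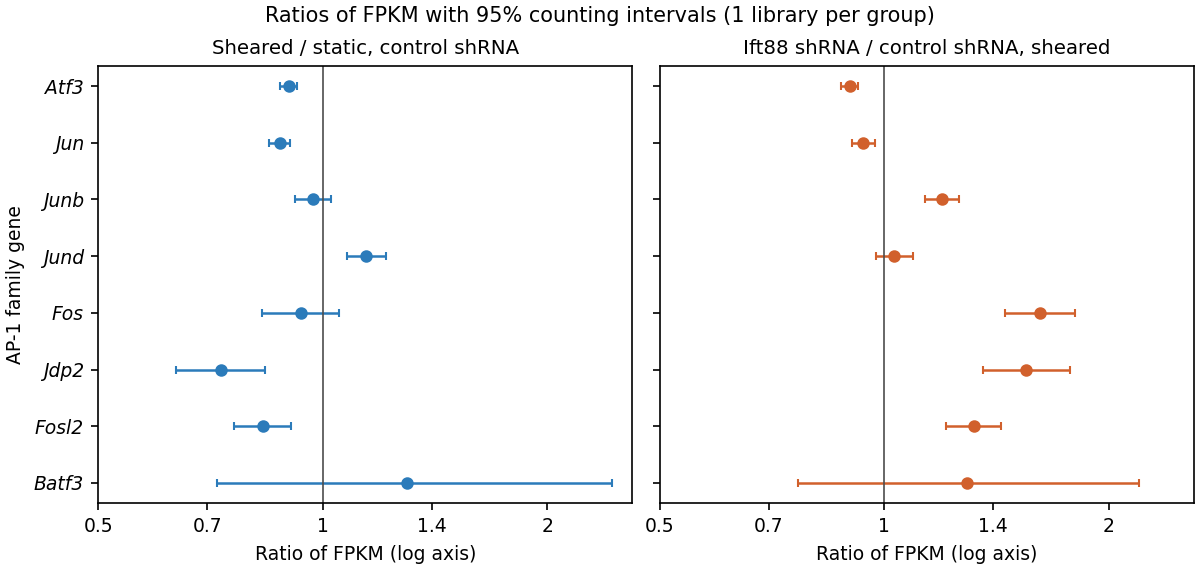
Ratio of FPKM (log axis) for the 8 AP-1 family genes that passed the filter, sheared over static control on the left and Ift88 shRNA over control shRNA under shear on the right; points are ratios of single libraries and bars 95% counting intervals. Jdp2 lies at 0.729 on the left and 1.55 on the right, Fos at 0.933 and 1.62, and Atf3 at 0.899 and 0.898.

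In the shear comparison, 1 of the 8 genes, Jdp2, was at least 1.2-fold lower, where 2.26% of all genes tested were, and 0 were at least 1.2-fold higher, against 1.94%. Of the 8 genes, 6 were below 0 and 2 above (Jund and Batf3) on the log2 scale of FPKM + 1, where 46.0% of all genes tested were above 0. The counting intervals of Fos, Junb and Batf3 with shear include no difference. The median of the 8 genes was -0.12, beside -0.01 over all genes. In the knockdown comparison, 3 of the 8 (Fos, Jdp2 and Fosl2) were at least 1.2-fold higher, against 3.25% of all genes, and 0 were at least 1.2-fold lower, against 2.29%. Fosl2 was no longer counted with a pseudocount of 5 FPKM (log2 ratio 0.20) or with a minimum mean of 5 FPKM, which left 2, and Junb joined with equal FPKM totals, which made 4. At 1.5-fold, Fos was the 1 gene counted as higher, where 0.28% of all genes were. In this comparison 6 of 8 were above 0 and 2 below (Jun and Atf3), with a median of 0.23 beside 0.01, where 53.6% of all genes tested were above 0. The counting intervals of Jund and Batf3 include no difference. The comparisons share the sheared control library, so a low or high value there enters both with opposite sign.

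With Ift88 shRNA under shear against static control cells, which differ in shear and shRNA together, 2 of the 8 genes (Fos and Batf3) were at least 1.2-fold higher, against 4.79% of all genes. The Batf3 interval, 0.966 to 3.06, includes no difference. Jun and Atf3 were at least 1.2-fold lower, 2 of 8, against 4.48%. Jdp2 and Fosl2 lay between, with ratios of 1.13 (1.00 to 1.28) and 1.09. The order with Ift88 shRNA highest and sheared control lowest was seen in 4 of the 8 genes (Fos, Fosl2, Junb and Jdp2) and in 16.6% of all genes tested. For Fos and Junb the sheared to static intervals, 0.828 to 1.05 and 0.917 to 1.02, include no difference. The order falling from static over sheared control to Ift88 shRNA was seen in Jun and Atf3 and in 21.1% of all genes.

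**Figure D4:**
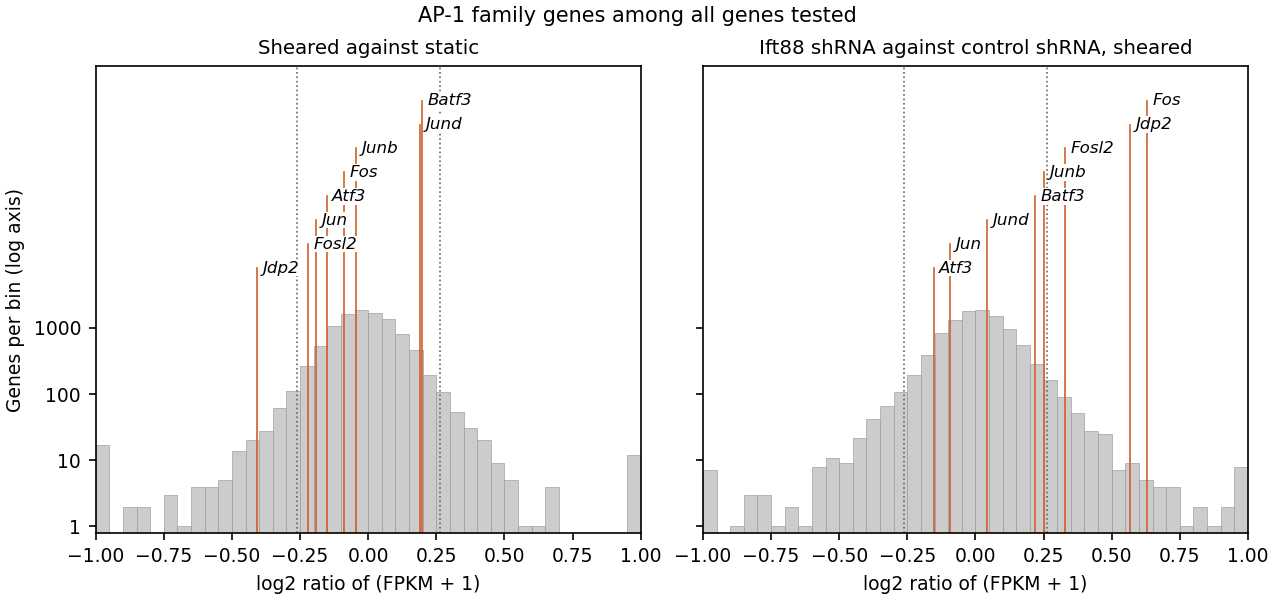
Histograms of the log2 ratio of (FPKM + 1) over all 10358 genes tested (log vertical axis; the outermost bars also hold genes beyond the axis), with orange lines at the 8 AP-1 family genes and dotted lines at 1.2-fold. On the left Jdp2 lies outside the dotted lines, and on the right Fosl2, Jdp2 and Fos do.

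Some members lie on the same chromosome. Fos and Jdp2 lie 121 kb apart on chromosome 12 with 2 predicted genes between them. Both had their lowest value in the sheared control, but the Fos interval for sheared to static, 0.828 to 1.05, includes no difference. For Jdp2 that interval was 0.635 to 0.837. Atf3 and Batf3 lie 61.4 kb apart on chromosome 1 with 4 genes between them. Atf3 fell in level from static over sheared control to Ift88 shRNA. The Batf3 values rose in that order, but on an estimated 21, 28 and 36 fragments, with intervals that include no difference. Junb and Jund lie 14.3 Mb apart on chromosome 8 with 326 genes between them, so they are not neighbours.

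By distance over both log2 ratios, among genes with a mean of at least 5 FPKM, the nearest to Fos were Ccr1, Rn4.5s, Ehd1 and Nfkbie. Ccr1, a chemokine receptor gene of myeloid cells, was at 10.7, 9.90 and 16.3 FPKM, with ratios of 0.923 for shear and 1.64 for the knockdown. Nfkbie, which encodes an inhibitor of NF-kappaB, was at 14.1, 12.7 and 19.1 FPKM. Ehd1, of endosome recycling, was at 21.8, 20.9 and 31.0. Rn4.5s, a small RNA gene, was at 5.16, 5.03 and 8.29 FPKM. The likeness rests on 3 libraries.

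Related genes were examined by list. Of 23 other basic leucine zipper genes that passed the filter, 2 were at least 1.2-fold higher and 2 lower in sheared cells. With Ift88 shRNA, 1 was higher and 1 lower, and the medians were 0.02 with shear and -0.01 with Ift88 shRNA. The shares over all genes were 1.94% higher and 2.26% lower with shear, and 3.25% higher and 2.29% lower with Ift88 shRNA. Cebpb, a myeloid regulator, was at 54.4, 71.1 and 70.8 FPKM. Creb5 (2.95, 2.22 and 3.01 FPKM) was the 1 of the 23 that was lower with shear and higher with Ift88 shRNA past 1.2-fold, as was Jdp2. Batf, a relative of Batf3, was at 8.75, 8.32 and 9.08 FPKM and lay within 1.2-fold.

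Of 32 genes of the MAP kinase cascades, 0 passed 1.2-fold in the shear comparison and 1, Mapk11, in the knockdown comparison (1.18, 1.05 and 1.59 FPKM). Of all genes tested, 1.94% were higher and 2.26% lower with shear and 3.25% and 2.29% with Ift88 shRNA, so counts of 0 or 1 in lists of this size are near the background. Of 17 regulators of AP-1 gene transcription and 14 genes of AP-1 RNA and protein turnover, 0 passed in either comparison. The median log2 ratios were -0.06 with shear for both lists, and 0.06 and 0.04 with Ift88 shRNA. Zfp36, whose protein marks Fos RNA and other short-lived RNAs for decay, was at 29.6, 26.1 and 25.8 FPKM.

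Of the 12 genes listed as AP-1 targets in osteoclasts, 11 are also in the osteoclast marker list, so the lists are not separate results. Of 8 targets that passed the filter, Ctsk, Acp5, Mmp9 and Dcstamp were at least 1.2-fold lower with shear and 1, Itgb3, was higher, and the same 4 were higher with Ift88 shRNA. Their medians were -0.25 and 0.35, and those of the osteoclast markers -0.08 and 0.24. The shares over all genes were 2.26% lower and 1.94% higher with shear and 3.25% higher with Ift88 shRNA. Dcstamp, needed for fusion, was at 5.21, 3.67 and 7.27 FPKM, and Mmp9 at 70.3, 39.3 and 85.5. The sheared control was lowest and Ift88 shRNA highest for both, the order of Fos and Jdp2. For Fos, the sheared to static interval of 0.828 to 1.05 includes no difference, so its place below static is not resolved. Ctsk (29.4, 12.6 and 18.5 FPKM) and Acp5 were also lowest in the sheared control but highest in static cells. This order was seen in 0 of the 8 AP-1 genes that passed the filter and in 16.3% of all genes tested. Nfatc1, the partner and target of Fos in this lineage, was at 16.2, 15.3 and 16.9 FPKM and lay within 1.2-fold; it was chosen after its values were seen. Of 18 general AP-1 targets, 1 was higher (Plaur) and 1 lower (Cxcl2) with shear, and 6 were higher and 0 lower with Ift88 shRNA. Over all genes, 1.94% were higher and 2.26% lower with shear, and 3.25% higher and 2.29% lower with Ift88 shRNA. Timp1 was at 4.20, 4.74 and 7.07 FPKM. The lists were drawn from general knowledge of AP-1, with earlier results of these data known. Their counts beside the shares over all genes are therefore descriptions only. Binding to these genes was not measured here.

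**Figure D5:**
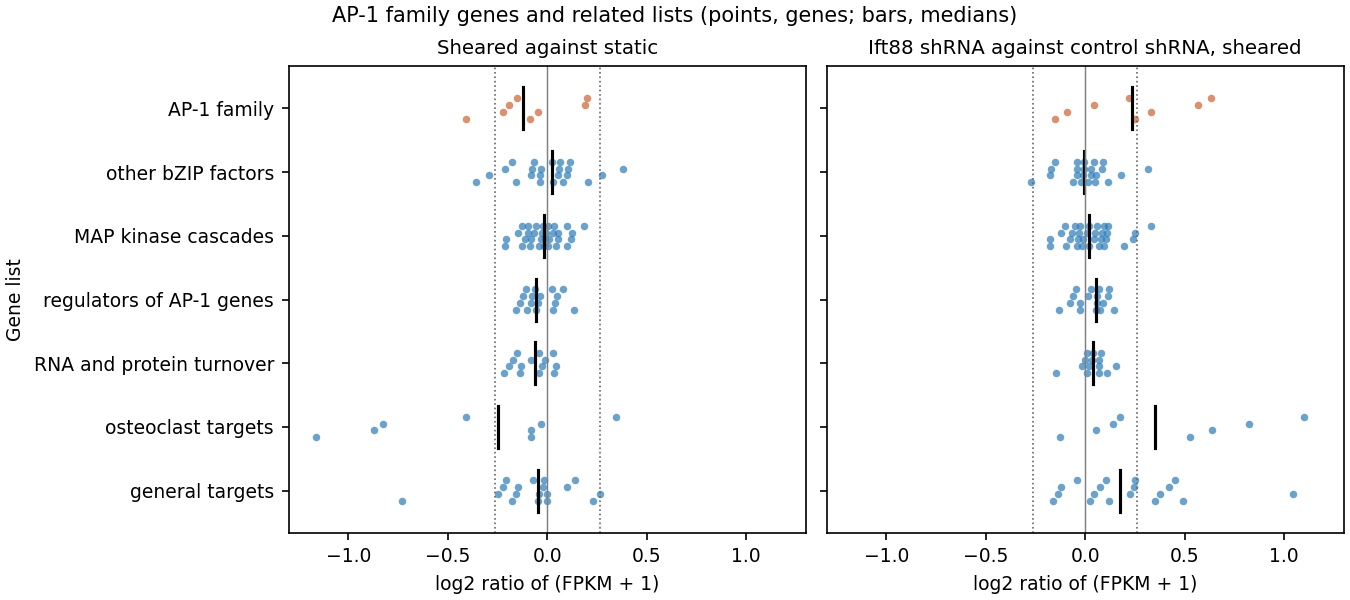
Log2 ratio of (FPKM + 1) for the AP-1 family (orange) and genes of 6 related lists (blue), each point a gene with a mean of at least 1 FPKM, black bars medians, dotted lines at 1.2-fold. The osteoclast targets have a median of -0.25 on the left and 0.35 on the right, and the MAP kinase cascades stay near 0 on both sides.

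Markers of neutrophils, stromal and osteoblast cells, macrophages and lymphoid cells were examined in the same libraries. Of all genes tested, 2.26% were at least 1.2-fold lower with shear, and 3.25% were higher and 2.29% lower with Ift88 shRNA. The 10 neutrophil markers matched summed to 77.6 FPKM in the static, 43.4 in the sheared control and 45.1 in the Ift88 shRNA library. Of the 5 that passed the filter, 3 were at least 1.2-fold lower with shear and 2 (S100a9 and Ngp) higher with Ift88 shRNA. The knockdown intervals of S100a9 (0.916 to 1.70) and Ngp (0.926 to 2.25) include no difference. The 12 stromal and osteoblast markers summed to 11.8, 9.57 and 11.7 FPKM, lowest in the sheared control. Of the 5 that passed the filter, 3 were lower with shear and 3 higher with Ift88 shRNA, and 2 lay within 1.2-fold in each comparison. Of 11 macrophage markers, 3 (C1qb, Fcgr1 and C1qa) were lower with shear and 8 lay within 1.2-fold. With Ift88 shRNA, 1 of the 11 (Fcgr1) was lower and 10 lay within 1.2-fold, and the medians were -0.18 with shear and 0.06 with Ift88 shRNA. The macrophage markers summed to 33584, 31912 and 33150 FPKM, mostly Lyz2 (30812, 29213 and 30408). The 7 lymphoid markers summed to 0.121, 0.0469 and 0 FPKM, with Cd3e and Ms4a1 listed at 0 throughout. The part of cell content in the values of the AP-1 genes was not tested.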

How the data were processed

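RNA of 3 libraries, 1 per group, was measured by sequencing of Illumina TruSeq mRNA libraries made from TRIzol extracts, per the labels' protocols. The authors deposited FPKM values for 24067 genes, 1 column per library. Cufflinks 2.2.1, TopHat2 2.0.13, Trimmomatic 0.32, bcl2fastq 1.8.4 and build mm10 are named in the submitters' processing notes; tool settings and strand use were not given in the sources used here. FPKM is a share of the library, so abundant genes can move all others.

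Ratios were computed with Python 3.11.15 (pandas 2.3.3, scipy 1.17.1) as plain ratios of FPKM and as log2 of (FPKM + 1), which understates differences of low genes. Depth was fitted to the spacing of values of 1 to 4 fragments in genes with 1 transcript of at least 1000 bases, using GENCODE M21 transcript lengths less a fitted fragment length of 190 bases. Between 66.2% and 68.5% of these values were whole within 0.1, so fragments are estimates and no count model was used. The procedure was also run on simulated data built with the same transcript lengths, which cannot test the use of GENCODE lengths for the deposited values. Coordinates and start-site flanks come from RefSeq for GRCm38, the files' build.

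Named genes were the 10 members, Ift88, from each list up to 4 genes with the largest difference in each main comparison, and the 5 nearest to Fos, of which 1 is not reported here; others named are examples of a list chosen after their values were seen. Members and lists were chosen with earlier results of these data known. Of the listed genes, Ly6g and Trac had no match in the table.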

Additional observations from a re-analysis of the deposited data

How the results depend on the processing

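The alternatives were pseudocounts of 0.1 and 5 FPKM, centring on the median gene, equal FPKM totals, centring in 10 bins of transcript length, no filter, a mean of at least 5 FPKM, and folds of 1.5 and 2; centring in 10 bins of GC content was chosen after seeing the data. Of 180 values of single members, 0 of those past 1.2-fold changed sign, and 1 within it did (Fosb with shear, -0.0041 after GC centring). The medians over members kept their sign. With a pseudocount of 0.1 FPKM, 1 member (Batf3) was higher with shear. The 3 members higher in the knockdown comparison became 4 with a pseudocount of 0.1 FPKM or equal FPKM totals, and 2 with a pseudocount of 5 FPKM or a mean of at least 5 FPKM, both without Fosl2. Under those last settings, 1 member (Fos, without Batf3) was higher with Ift88 shRNA against static. At 1.5-fold, 0 members were lower with shear, 1 was higher in the knockdown comparison, and 0 were higher and 0 lower against static; at 2-fold each of these counts was 0. No paired analysis was possible because each group had 1 library, and for the same reason no library could be left out. Fosb, Fosl1 and Batf3 are limited by depth.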
